A study of Mus musculus with 4 samples.

Results

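The 10 genes described here belong to nucleic acid sensing in the cytosol, its signalling, or the control of nucleic acids and their building blocks. They are Ddx58, Ifih1, Dhx58, Mavs, Tbk1, Ikbke, Trex1, Samhd1, Adar and Eif2ak2. They were chosen by gene symbol on the primary chromosomes, and all 10 were found among 32617 genes in the deposited table and passed the filter on low counts. Messenger RNA was sequenced from mouse blood monocytes grown into macrophages. The labels give C57BL/6J mice aged 10 to 16 weeks (60 animals, blood pooled), CD11b-selected cells, and 6 or 7 days with 30 ng/ml M-CSF, the growth factor every culture received. There were 3 groups. Peptide-treated macrophages (CAM+mML56, 2 libraries, called library 1 and library 2 by their column numbers) were activated in the same way and given mML56, which spans Ninj1 residues 1 to 56 and stands in for soluble Ninj1. Classically activated macrophages (CAM, 1 library) received 500 ng/ml LPS, a bacterial cell wall component, together with 20 ng/ml IFNγ. Unstimulated macrophages (M_M-CSF, 1 library) had M-CSF alone. The peptide samples carry the strain label C57BL/7J, read here as the same strain. No source used here gives the peptide dose or the length of stimulation. The labels do not say whether the peptide libraries came from separate cultures, so p-values measure a spread that may be technical.

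RNA left by viruses in the cytosol is bound by the helicases RIG-I (gene Ddx58) and MDA5 (Ifih1), with LGP2 (Dhx58) as a regulator of both. RIG-I and MDA5 signal through MAVS, a protein of the mitochondrial outer membrane, to the kinases TBK1 and IKKε (Ikbke), which switch on interferon genes. TREX1 degrades stray DNA, SAMHD1 hydrolyses deoxynucleotides, ADAR1 (Adar) edits double-stranded RNA so that it is not taken for viral, and PKR (Eif2ak2) halts translation when it binds such RNA. In macrophages many of these genes are themselves switched on by interferons.

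Levels are given in CPM, a gene's count scaled to a common library total, after TMM scaling, which corrects library totals for differences in composition. Estimated counts summed to 12842680 and 12119427 in the peptide libraries, 10333986 in CAM and 12414586 in M_M-CSF. Differences were tested with edgeR's quasi-likelihood test over 14104 genes, and a gene was called where its Benjamini-Hochberg adjusted p was under 0.05. The CAM and M_M-CSF groups hold 1 library each, so the spread comes from the peptide pair alone. All 12 macrophage identity genes had counts in all 4 libraries, Csf1r and Lyz2 among them. The 12 macrophage genes summed to 6180 and 5290 CPM with the peptide, 8050 CPM in CAM and 23000 CPM in M_M-CSF, where Lyz2 made up most of the sum. Summed B and plasma cell markers (7 genes) reached 1.73 and 2.99 CPM with the peptide, 3.14 CPM in CAM and 114 CPM in M_M-CSF, nearly all of it Ighm. Summed platelet markers (6 genes) stood at 17.5 and 14.8 CPM with the peptide, 10.9 CPM in CAM and 125 CPM in M_M-CSF, with Pf4 and Itgb3 as the main part. Summed T and NK cell markers (8 genes) were at 7.22 and 7.64 CPM with the peptide, 11.7 CPM in CAM and 19.6 CPM in M_M-CSF; Cd3e was at 0 in every library, but Cd3d, Cd4 and Cd8a were not. Neutrophil markers (7 genes) summed to 2.92 and 5.73 CPM with the peptide, 7.8 CPM in CAM and 2.52 CPM in M_M-CSF, with S100a9, Ly6g and Elane at 0 throughout. Dendritic cell markers (7 genes), mostly Tcf4, summed to 106 and 92.6 CPM with the peptide, 137 CPM in CAM and 189 CPM in M_M-CSF. Of these, Xcr1 was highest in CAM, at 23.81 CPM against 2.07 CPM in M_M-CSF and 5.42 and 5.65 CPM with the peptide. Fibroblast and endothelial markers (6 genes), mostly Kdr and Pecam1, summed to 116 and 122 CPM with the peptide, 86.3 CPM in CAM and 34.2 CPM in M_M-CSF. This sum ran the other way mostly through Kdr, at 95.02 and 89.99 CPM with the peptide, 58.88 CPM in CAM and 11.85 CPM in M_M-CSF. Pecam1 stood at 19.43 and 29.91 CPM with the peptide, 22.51 CPM in CAM and 18.91 CPM in M_M-CSF. Genes of the mitochondrial chromosome took 1.32% and 1.01% of counts with the peptide, 1.63% in CAM and 6.08% in M_M-CSF. The part of these shifts in the results was not tested. In bulk RNA, fewer cells expressing a gene and less RNA per cell cannot be told apart.

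**Figure D1:**
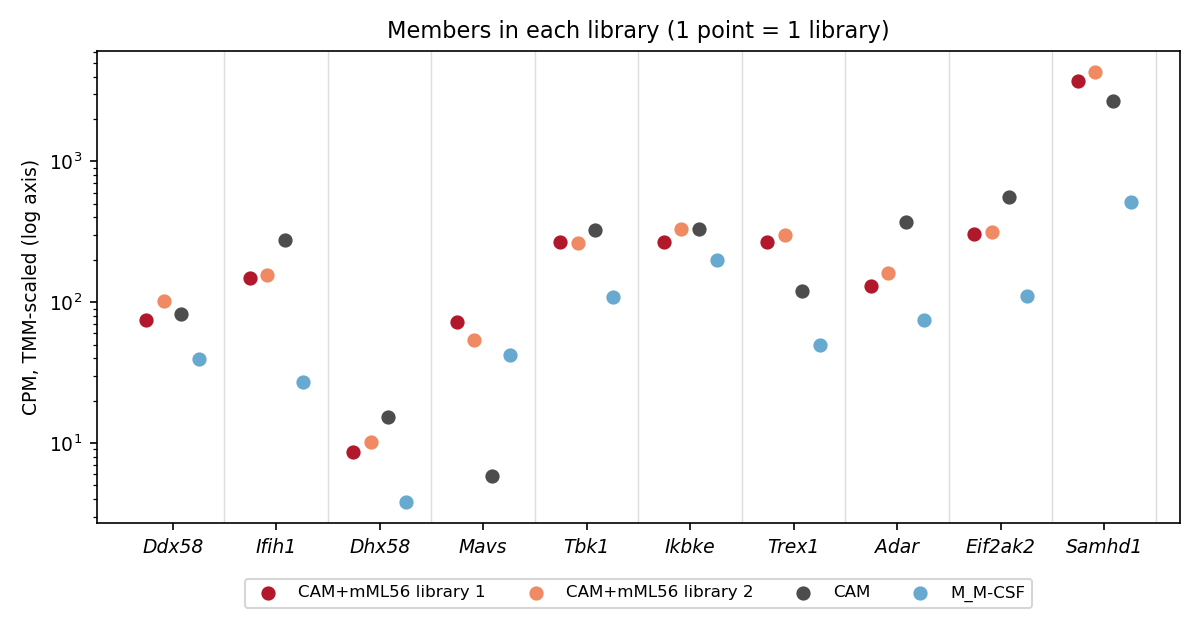
Level of each of the 10 genes (CPM, log axis) in every library, 1 point per library, with the peptide libraries first, then CAM, then M_M-CSF. Mavs is the gene whose CAM point lies below its points in the other 3 libraries, and Samhd1 has the highest points.

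Activation was accompanied by higher levels of 9 of the 10 genes in CAM than in M_M-CSF, and by a lower level of Mavs. Over all genes tested, 21.4% were called higher in CAM, 23% lower and 44.4% in either direction. At least 2-fold higher were 8 of the 10 genes, against 21.4% of all genes, and at least 2-fold lower was Mavs, against 26.3%. The median log2 fold change of the 10 genes was 1.79, against -0.0741 for all genes tested. The gains ran from 1.68-fold for Ikbke to 10.2-fold for Ifih1.

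Among the RNA sensors, Ifih1 (ENSMUSG00000026896, mm10 chromosome 2, 62595798 to 62646255) stood at 277.2 CPM in CAM and 27.26 CPM in M_M-CSF. The log2 fold change was 3.34 (SE 0.207, edgeR adjusted p = 4.18e-08), the largest gain of the 10 genes. Dhx58 (ENSMUSG00000017830, chromosome 11, 100694884 to 100704271) was the lowest of the sensors, at 15.26 CPM in CAM (141 counts) and 3.821 CPM in M_M-CSF (59 counts). Its exact Poisson 95% intervals, which cover counting error only, were 12.8 to 18 CPM and 2.91 to 4.93 CPM in the same order. The log2 fold change was 1.99 (SE 0.373, edgeR adjusted p = 0.000756). Ddx58 (ENSMUSG00000040296, chromosome 4, 40203773 to 40239828) was at 81.94 CPM in CAM and 39.37 CPM in M_M-CSF, a smaller gain of 1.06 on the log2 scale (SE 0.236, edgeR adjusted p = 0.00269). With library size as the only scaling, the Ddx58 difference was 0.58 and missed the threshold (adjusted p = 0.0605).

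Mavs, the adaptor that RIG-I and MDA5 share (ENSMUSG00000037523, chromosome 2, 131234063 to 131248025), stood at 5.845 CPM in CAM and 42.48 CPM in M_M-CSF. These levels rest on 54 and 656 counts, with exact Poisson 95% intervals of 4.39 to 7.63 CPM and 39.3 to 45.9 CPM. Mavs was thus 7.26-fold lower in CAM (log2 fold change -2.86, SE 0.29, edgeR adjusted p = 4.14e-06). The kinases below it went the other way. Tbk1 (ENSMUSG00000020115, chromosome 10, 121546455 to 121586794) was at 324.3 CPM in CAM and 108.6 CPM in M_M-CSF, a log2 fold change of 1.58 (SE 0.192, edgeR adjusted p = 2.12e-05). Ikbke (ENSMUSG00000042349, chromosome 1, 131254343 to 131279606) was at 333.8 CPM in CAM and 199 CPM in M_M-CSF (log2 fold change 0.75, SE 0.209, edgeR adjusted p = 0.0112). With library size as the only scaling, Ikbke differed by 0.27 and missed the threshold (adjusted p = 0.271).

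The genes of nucleic acid control (Samhd1 and Trex1) and the double-stranded RNA effectors (Eif2ak2 and Adar) were also higher in CAM. Samhd1 (ENSMUSG00000027639, chromosome 2, 157097533 to 157135265) reached 2708 CPM in CAM against 511.2 CPM in M_M-CSF, a 5.29-fold gain (edgeR adjusted p = 7.76e-06). Eif2ak2 (ENSMUSG00000024079, chromosome 17, 78852564 to 78882573) stood at 555.2 CPM in CAM and 110.9 CPM in M_M-CSF (log2 fold change 2.32, SE 0.2, edgeR adjusted p = 8.54e-07). Adar (ENSMUSG00000027951, chromosome 3, 89715022 to 89753446) was at 369.9 CPM in CAM and 74.86 CPM in M_M-CSF, so that the gains of Adar and Eif2ak2 were alike in size, 4.94-fold and 5-fold. The gene has a long interferon-inducible and a short constitutive form, which values per gene do not tell apart. Trex1 (ENSMUSG00000049734, chromosome 9, 109057933 to 109059734) gained less, at 119.8 CPM in CAM and 49.93 CPM in M_M-CSF (log2 fold change 1.26, SE 0.2, edgeR adjusted p = 0.000203). In the GENCODE M21 annotation all exonic bases of Trex1 also lie in exons of Atrip on the same strand, and 16.8% of those of Adar lie opposite exons of Chrnb2. Atrip had 94 and 100 counts with the peptide, 44 in CAM and 128 in M_M-CSF, against 3090, 3633, 1107 and 771 for Trex1. How reads were divided between overlapping genes, and whether strand was used, is given by no source used here.

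Since 9 of the 10 genes moved together on activation, their promoters were searched for the binding letters of interferon signalling. The core of the interferon-stimulated response element was taken as GAAA, any 2 bases and GAAA, and that of the IFNγ-activated site as TTC, any 3 bases and GAA. Each was searched on both strands of RefSeq promoter windows (build GRCm38.p6) from 250 bases before to 50 after an annotated start. Windows were matched for 9 of the 10 genes by symbol (12 windows, since Trex1 has 2 starts and Adar 3); the gene without one is Dhx58. The response element letters occurred in 3 of these 12 windows, against 3.44% of 32851 windows of the genome, and the activated site letters in 3 of the 12, against 8.3%. The 3 response element matches, shown because the genes carrying them are a pair of RNA sensors and PKR, each lie just past the annotated start. In the 30 bases printed for each, 5′ to 3′ on the gene's strand, capitals mark the matched letters.
Ifih1, chr2:62646206-62646235, minus strand, match 32 bases after the start: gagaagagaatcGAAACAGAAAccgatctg
Ddx58, chr4:40239804-40239833, minus strand, match 2 bases after the start on the opposite strand: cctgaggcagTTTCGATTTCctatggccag
Eif2ak2, chr17:78882535-78882564, minus strand, match 18 bases after the start: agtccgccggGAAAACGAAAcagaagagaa
The activated site letters were found in Samhd1, at the last of the 3 Adar starts, and in Eif2ak2, the gene with both motifs; the motifs did not overlap there. Mavs, the gene that fell, held neither, and neither did Tbk1, Ikbke or the Trex1 windows, though those 3 genes were higher in CAM. A match is a description of letters and not a measured binding site.

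**Figure D2:**
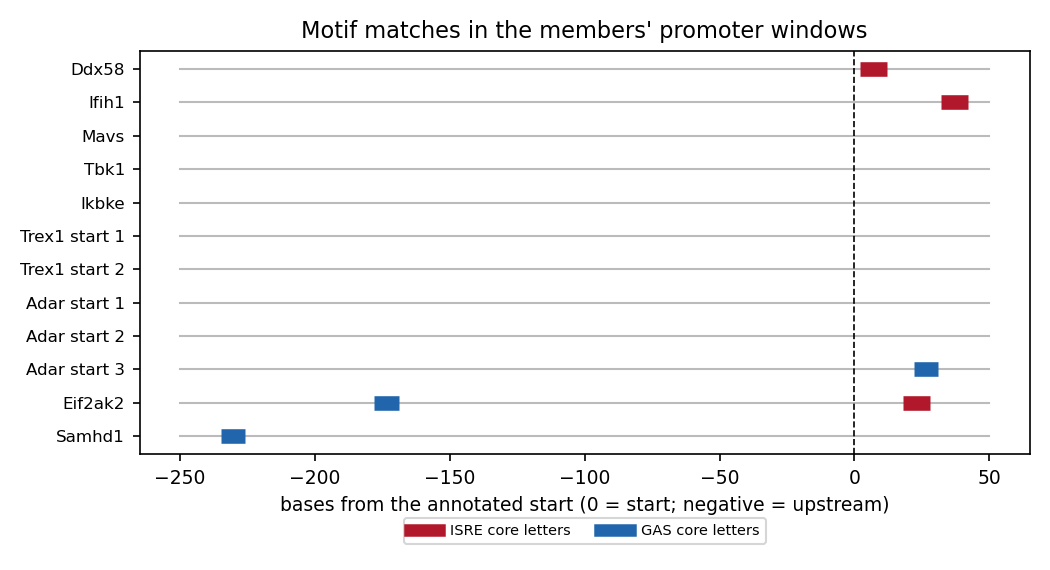
Position of the response element (ISRE, red) and activated site (GAS, blue) letters in the 12 promoter windows, in bases from the annotated start. Ddx58, Ifih1 and Eif2ak2 hold the ISRE letters, all within 50 bases after the start, and the other windows hold none.

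When activated macrophages with and without the peptide were compared, the 10 genes divided. Mavs and Trex1 were higher with the peptide, Adar, Ifih1 and Eif2ak2 were lower, and 5 genes did not pass the threshold. Over all genes tested, 20.6% were called higher, 17.1% lower and 37.7% in either direction, so a count of 5 in 10 is near the background. At least 2-fold higher were Mavs and Trex1, against 20.2% of all genes, and at least 2-fold lower was Adar, against 16.7%. The median log2 fold change of the 10 genes was -0.222, against 0.0453 for all genes tested. The peptide libraries lay between 0.0135 (Tbk1) and 0.461 (Ddx58) apart on the log2 scale in these genes, against a median of 0.158 over 7376 genes at a mean of 10 CPM or more.

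Mavs stood at 72.06 and 54.17 CPM in the peptide libraries, against 5.845 CPM in CAM. Both peptide libraries lay above CAM and also above the 42.48 CPM of M_M-CSF. The mean of 63.12 ± 12.6 CPM (SD, n = 2) was 10.8-fold higher than CAM (log2 fold change 3.43, SE 0.275, edgeR adjusted p = 2.98e-06). Trex1 reached 265.7 and 301.9 CPM with the peptide and 119.8 CPM in CAM, a further log2 gain of 1.24 (SE 0.178, edgeR adjusted p = 0.000188). In the edgeR fit it was the only one of the 10 genes called higher both in CAM over M_M-CSF and with the peptide over CAM. Samhd1 had 3728 and 4305 CPM with the peptide and 2708 CPM in CAM, both libraries above CAM, with a log2 fold change of 0.57 (SE 0.22) that missed the threshold (edgeR adjusted p = 0.0578). DESeq2's Wald test called it (adjusted p = 0.0106), as did library size scaling (0.00866) and a fit without M_M-CSF (0.0264).

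The double-stranded RNA effectors were lower with the peptide. Adar stood at 131.1 and 161.9 CPM with the peptide and 369.9 CPM in CAM, 2.52-fold lower (log2 fold change -1.34, SE 0.17, edgeR adjusted p = 8.62e-05). Eif2ak2 stood at 307.1 and 313.2 CPM with the peptide and 555.2 CPM in CAM (log2 fold change -0.84, SE 0.16, edgeR adjusted p = 0.00142). Both genes remained above their M_M-CSF levels of 74.86 and 110.9 CPM in each peptide library. Of the sensors, Ifih1 was lower, at 148.8 and 155.9 CPM with the peptide against 277.2 CPM in CAM (log2 fold change -0.86, SE 0.157, edgeR adjusted p = 0.00103).

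Dhx58 had 8.685 and 10.22 CPM with the peptide and 15.26 CPM in CAM. Both libraries lay below CAM, but the log2 fold change of -0.69 (SE 0.301) missed the threshold (edgeR adjusted p = 0.0886). Ddx58 had 74.38 and 102.4 CPM with the peptide, on either side of the 81.94 CPM of CAM (log2 fold change 0.11, SE 0.201, edgeR adjusted p = 0.697). Without peptide library 2 the Ddx58 difference was -0.10. RIG-I and MDA5, the paired RNA sensors, thus had differences of 0.11 and -0.86; the gap between them was not tested. Tbk1 was at 265.7 and 263.2 CPM with the peptide and 324.3 CPM in CAM (log2 fold change -0.29, SE 0.161, edgeR adjusted p = 0.168). Ikbke was at 268 and 333.3 CPM with the peptide and 333.8 CPM in CAM (log2 fold change -0.15, SE 0.179, edgeR adjusted p = 0.535).

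**Figure D3:**
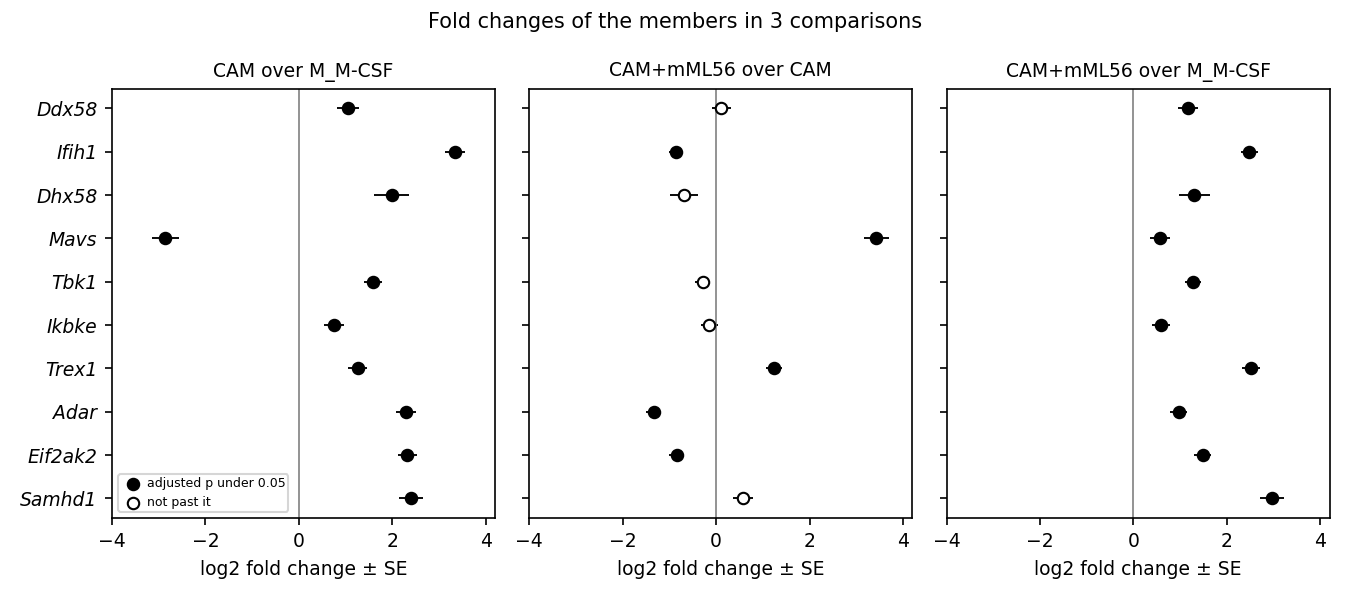
Log2 fold change of each gene with its standard error in CAM over M_M-CSF, CAM+mML56 over CAM and CAM+mML56 over M_M-CSF; filled points passed the threshold. Mavs is at -2.86, 3.43 and 0.57 in the 3 panels, and Trex1 is above 0 and past the threshold in all of them. Samhd1 and Ddx58 are also above 0 in all 3, but did not pass the threshold in CAM+mML56 over CAM.

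Both comparisons above use the same CAM library, so a value particular to that library moves them in opposite directions. Mavs was one of 72 genes whose CAM level lay at least 5-fold below all 3 other libraries, among 7376 genes at a mean of 10 CPM or more (0.976%), and 8 of the 72 were listed at 0 in CAM. Another 24 genes lay at least 5-fold above all 3 others in CAM. An exact 0 in a table of this kind can be a failed estimate. The actin gene Actb stood at 75.07 and 109.93 CPM with the peptide, 44.38 CPM in CAM and 74.09 CPM in M_M-CSF. Rplp0, a ribosomal protein gene, was low and highest in CAM. Its levels were 1.89 and 1.41 CPM with the peptide, 19.92 CPM in CAM and 0.52 CPM in M_M-CSF. Whether the low but nonzero Mavs value, or these levels, come from RNA or from estimation was not tested.

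Setting CAM+mML56 against M_M-CSF leaves that library out of the difference. All 10 genes were called higher in it, where 22.1% of all genes tested were called higher, 19% lower and 41.2% in either direction. At least 2-fold higher were 7 of the 10, against 18.3% of all genes, and none was at least 2-fold lower, against 20.2%. The largest gain was that of Samhd1, 7.85-fold (log2 fold change 2.97, SE 0.252, edgeR adjusted p = 6.47e-07), followed by Trex1 at 5.68-fold and Ifih1 at 5.58-fold. Eif2ak2 was 2.8-fold, Dhx58 2.47-fold, Tbk1 2.43-fold, Ddx58 2.24-fold and Adar 1.96-fold higher. Ikbke (log2 fold change 0.59, edgeR adjusted p = 0.0202) and Mavs (0.57, edgeR adjusted p = 0.0469) had the smallest gains. With library size as the only scaling 7 of the 10 were called, without Mavs (log2 fold change 0.17, adjusted p = 0.494), Ikbke (0.21, 0.329) and Dhx58 (0.92, 0.0686). DESeq2 called 8, without Mavs (adjusted p = 0.245) and Dhx58 (0.138). With no filter on low counts edgeR called 9, without Mavs (log2 fold change 0.59, edgeR adjusted p = 0.081).

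Levels of different genes were compared per kilobase of the longest coding transcript in GENCODE M21. Samhd1 was highest in every library, at 950 and 1100 CPM per kilobase with the peptide, 690 in CAM and 130 in M_M-CSF. With the peptide Trex1 came next at 245 and 279 CPM per kilobase, against 111 in CAM and 46.1 in M_M-CSF. In CAM the second place was held by Eif2ak2 (129), followed by Trex1 (111), Tbk1 (107) and Ikbke (103). Within the peptide pair, Tbk1 (87.9 and 87) lay inside the range of Ikbke (82.4 and 103), so by this length these neighbours did not differ beyond their spread. The ranges of Adar (22.2 and 27.4), Ddx58 (19.2 and 26.4) and Mavs (23.6 and 17.7) also overlapped, and that of Ifih1 (27.2 and 28.5) overlapped Adar. Dhx58 was lowest with the peptide (3.6 and 4.24 CPM per kilobase) and in M_M-CSF (1.58), and Mavs was lowest in CAM (1.91, against 6.33 for Dhx58). With the length of all exons together in place of the longest transcript, the same genes were highest and lowest in each library, but the order between them changed. Tbk1 (68 and 67.3 CPM per kilobase with the peptide) then lay above Ikbke (29.7 and 37), and Ddx58 (10.6 and 14.5) below both Adar (16.1 and 19.9) and Mavs (21.5 and 16.2), so these orders rest on the length used.

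Genes most like each of the 10 were sought over the 4 libraries by the distance between log2 CPM profiles centred on their own means. Nearest to Mavs were Hspa8, Gngt2 and Acot13 (distances 0.392, 0.394 and 0.436). The nearest gene to each of the other 9 lay closer, at 0.0444 for Tbk1 to 0.191 for Samhd1. Hspa8, a constitutive chaperone, stood at 1344 and 1240 CPM with the peptide, 144.7 in CAM and 742.1 in M_M-CSF. Nearest to Ifih1 were Ppa1, Epsti1 and Parp11 (0.153 to 0.162), nearest to Trex1 were Agpat4, Fanca and Rasgrf1 (0.0667 to 0.149), and nearest to Adar were Dcbld2, Arid3a and Rnf213 (0.0853 to 0.177). With 4 libraries, of which 2 are replicates, such likeness is a description of 3 levels.

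The wider pathway was followed in 5 lists of other genes. Among 21 tested genes of cytosolic DNA sensing, 11 were higher in CAM than in M_M-CSF and 2 lower, where 21.4% of all genes tested were higher and 23% lower, with a median log2 fold change of 1.47. The highest gains were in the interferon-inducible Ifi200 family. Apart from Zbp1 (log2 fold change 2.95), every gene called higher was a member of this family or Aim2. The count and the median of the list thus rest mainly on that family. Ifi205 stood at 780.5 CPM in CAM and 8.807 CPM in M_M-CSF (log2 fold change 6.47, edgeR adjusted p = 1.2e-09), and Ifi208 and Ifi206 gained 7.04 and 5.89. Tmem173, which encodes STING, the adaptor of DNA sensing, was lower in CAM (39.07 against 66.51 CPM, log2 fold change -0.77, edgeR adjusted p = 0.00684), as was Prkdc, a DNA repair kinase (-0.90). With library size scaling 4 genes of this list were lower in CAM.

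With the peptide, 4 of the 21 genes were higher than in CAM and none was lower in edgeR's test, with a median of 0.0542. Over all genes 20.6% were higher and 17.1% lower, so the count of higher genes is near the background; 1 gene of the list was lower at an unadjusted p under 0.05. Tmem173 was at 87.71 and 88.24 CPM with the peptide against 39.07 CPM in CAM (log2 fold change 1.17, SE 0.18, edgeR adjusted p = 0.000312). It was thus called in the same directions as Mavs, the adaptor of RNA sensing, in both comparisons, at smaller sizes. Zbp1, a sensor of left-handed nucleic acid, gained 0.48 and the helicase Ddx41 0.64. Mb21d1, which encodes the DNA sensor cGAS, was the other called gene; named after its values were seen, it had 1.29 and 1.828 CPM with the peptide, a listed 0 in CAM and 3 counts in M_M-CSF.

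Among 25 tested regulators of the RIG-I-like receptors and partners of MAVS and TBK1, 15 were higher in CAM and 4 lower (all genes: 21.4% and 23%), with a median of 0.98. Traf3, a ubiquitin ligase that links MAVS to the kinases, stood at 24.79 CPM in CAM and 0.5828 CPM in M_M-CSF (9 counts). Tank, a scaffold of TBK1, gained 2.66 and the helicase Ddx60 2.76. Ppp1cc, a phosphatase subunit that acts on RIG-I and MDA5, was at 2.706 CPM in CAM and 45.98 CPM in M_M-CSF (log2 fold change -4.08, edgeR adjusted p = 4.73e-06), and Prkra, an activator of PKR, was also lower (-1.72), as was Tkfc (-1.11). With the peptide 6 genes of the list were higher and 7 lower than in CAM (all genes: 20.6% and 17.1%). Ppp1cc was at 18.92 and 32.82 CPM, above the CAM value in both libraries (log2 fold change 3.25, edgeR adjusted p = 6.09e-05). Nlrx1, a mitochondrial inhibitor of MAVS, was at 30.78 and 28 CPM with the peptide and 9.417 CPM in CAM (log2 fold change 1.64, edgeR adjusted p = 0.000407), and Traf2 gained 1.00. Tomm70a, an import receptor that binds MAVS (-0.90), Tank (-0.85) and the deubiquitinase Cyld (-0.79) were lower.

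Among 20 genes of RNA and DNA decay, trimming and editing, 10 were higher in CAM and 3 lower (all genes: 21.4% and 23%), with a median of 0.663. Dnase1l3, a secreted DNase, was at 259.3 CPM in CAM and 2.008 CPM in M_M-CSF (log2 fold change 7.01, edgeR adjusted p = 9.44e-10). Isg20, an RNA exonuclease, stood at 16.24 CPM in CAM against 3 counts in M_M-CSF. The RNase Zc3h12a gained 2.77. Among the genes lower in CAM were Dnase2a, the lysosomal DNase (-2.18), and Skiv2l, an exosome helicase (-1.06). With the peptide 4 genes were higher and 4 lower than in CAM, near the 20.6% and 17.1% of all genes. Apobec1, a cytidine deaminase, stood at 931 and 786.5 CPM with the peptide and 317.4 CPM in CAM (log2 fold change 1.44, edgeR adjusted p = 0.00014), Apobec3 gained 0.74 and Skiv2l 0.82. Dnase1l3 (-0.82) and Xrn1, a cytosolic exonuclease (-0.77), were among the lower genes.

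Around PKR, 3 of 12 other eIF2 kinases and stress partners were higher in CAM and 1 lower (median 0.274), where 21.4% and 23% of all genes were. With the peptide 1 was higher and 1 lower than in CAM (median -0.0426), where 20.6% and 17.1% of all genes were. Atf4, a transcription factor made when eIF2 is phosphorylated, was at 238.7 CPM in CAM and 44.17 CPM in M_M-CSF (log2 fold change 2.43, edgeR adjusted p = 9.27e-07), and Ppp1r15b, an eIF2 phosphatase subunit, gained 2.32. Eif2ak4, the amino acid sensing kinase GCN2, moved opposite to Eif2ak2 in both comparisons, with 9.741 CPM in CAM against 21.44 CPM in M_M-CSF (-1.14) and 20.12 and 22.6 CPM with the peptide (1.13). G3bp2, a stress granule protein, was higher in CAM (0.76) and lower with the peptide (-0.73).

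At the output of the pathway, 6 of 8 tested interferon genes, transcription factors and receptors were higher in CAM and 1 lower (all genes: 21.4% and 23%), with a median of 2.21, or 1.75 with Ifnb1 at the bound given by a floor of 3 counts. Irf7, the factor that amplifies interferon production, stood at 579.3 CPM in CAM and 13.66 CPM in M_M-CSF (log2 fold change 5.40, edgeR adjusted p = 3.73e-09), and Stat2, a transcription factor of interferon signalling, gained 3.12. Ifnar2, a chain of the interferon receptor, was lower (-0.80). With the peptide 4 of the 8 were higher than in CAM (all genes: 20.6%), and edgeR called none lower, also at an unadjusted p under 0.05 (median 0.649). Ifnar2 was at 208.2 and 180.4 CPM with the peptide and 53.79 CPM in CAM (log2 fold change 1.85, edgeR adjusted p = 1.62e-05), and Irf7 and Ifnar1 gained 1.10 and 0.99. Ifnb1, the interferon gene that this pathway induces, was low throughout, at 3.611 and 3.074 CPM with the peptide and 0.8659 CPM in CAM (8 counts), and was listed at 0 in M_M-CSF; it was named after its values were seen. The 4 interferon alpha and 2 interferon lambda genes of the list had no count in any library. Genes with fewer than 10 counts are read at the limit of this depth.

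In peptide-treated macrophages set against M_M-CSF, 22.1% of all genes were higher and 19% lower. Of the 21 DNA sensing genes, 13 were higher and 2 lower (median 1.57). Outside the Ifi200 family and Aim2, the higher ones were Zbp1 and Mb21d1. Of the 25 receptor regulators and kinase partners, 16 were higher and 3 lower (median 0.837). Of the 20 decay and editing genes, 10 were higher and 3 lower (median 0.567). Around PKR the counts were 2 higher and 1 lower of 12 (median 0.157), and at the output 7 of 8 were higher (median 2.66). Among output genes with a count in M_M-CSF the largest gain was that of Irf7, at 1278 and 1213 CPM with the peptide and 13.66 CPM in M_M-CSF (log2 fold change 6.51, edgeR adjusted p = 8.97e-10).

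**Figure D4:**
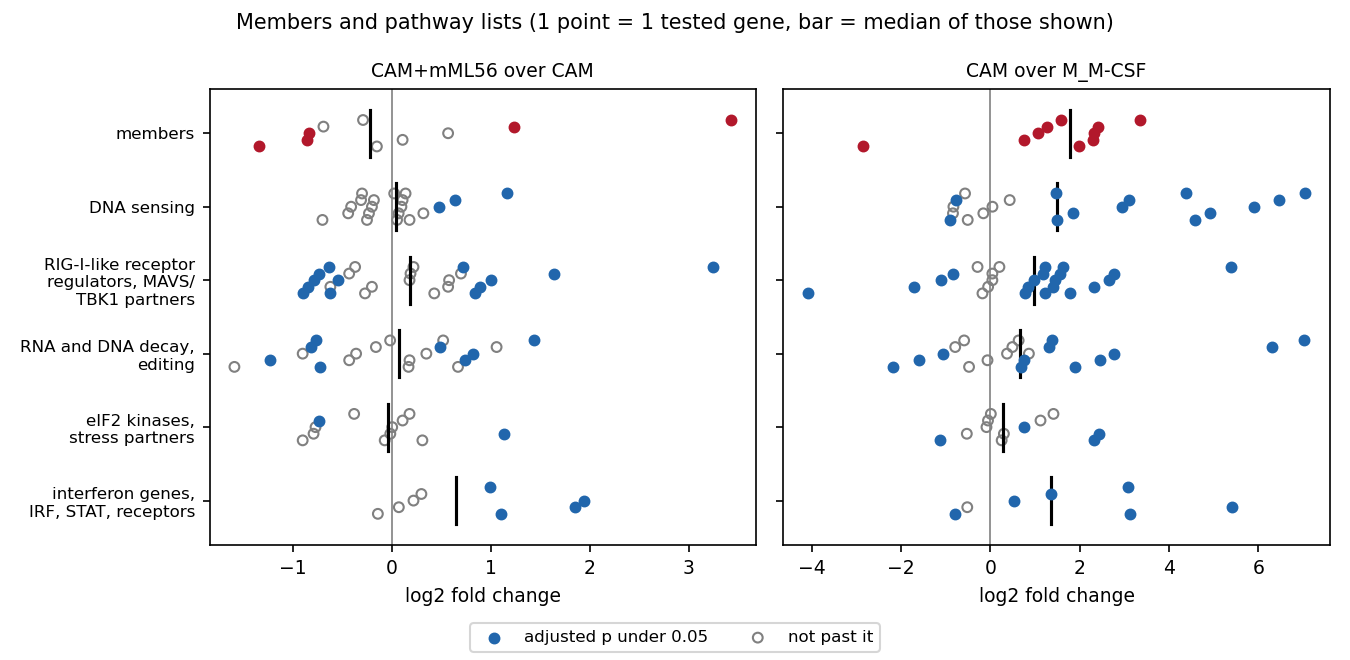
Log2 fold changes of the 10 genes (red when past the threshold) and of the tested genes of the 5 lists (blue when past it, open when not), in CAM+mML56 over CAM on the left and CAM over M_M-CSF on the right, with a bar at the median of the genes shown. Genes listed at 0 in a compared group are left out (Mb21d1 in both panels, Ifnb1 on the right); the DNA sensing points farthest to the right in the right panel are Ifi206, Ifi205 and Ifi208, at 5.89, 6.47 and 7.04.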

How the data were processed

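The authors deposited estimated counts per gene for 4 mRNA libraries (a NEXTflex Rapid Directional kit, per the labels), unscaled and partly fractional. The submitters' processing notes name kallisto, StringTie and the build mm10. No source used here gives versions, the annotation release, the strand setting or how transcripts were summed. Counts were rounded. Of 32617 genes, 13199 had no count and filterByExpr kept 14104. TMM factors were 0.906 and 0.993 (peptide), 0.894 (CAM) and 1.24 (M_M-CSF). edgeR 4.0.16 (R 4.3.3) was fitted to all 4 libraries in 3 groups. The fit had 1 residual degree of freedom, from the peptide pair, moderated across genes (prior degrees of freedom 11.8). It was checked on simulated data in which every library had the same spread. That check cannot show whether the lone CAM and M_M-CSF libraries vary like the peptide pair. Counts of the 2 peptide libraries were farther apart than counting error (chi-square 205134, 14015 degrees of freedom), so they are not the same counts deposited again. This shows neither separate cultures nor separately made libraries. Fold changes carry a prior count of 0.125; a standard error is the fold change over the square root of F. No column was left out. GENCODE M21 (same assembly) gave lengths and overlaps.

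Members and lists were chosen with earlier results of these data known. Named list genes are the up to 3 largest changes per list, comparison and direction that were called and reached 10 CPM in the higher group; for each member, also the 3 nearest genes by profile. Some genes that this rule names are not reported here. The alternatives were library size only, RLE factors, TMM without Lars2 and Gm15662 (7.79% to 14.1% of counts in activated libraries, 6.4% in M_M-CSF), no filter, DESeq2 1.42.0, a prior count of 2, and libraries left out.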

Additional observations from a re-analysis of the deposited data

How the results depend on the processing

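Library size only as the scaling moved the median log2 fold change of all genes from -0.0741 to -0.55 in CAM against M_M-CSF and from -0.0755 to -0.464 in CAM+mML56 against M_M-CSF, and the share of calls that were higher from 48.2% to 28.5% and from 53.8% to 33.2%. Under it 4 of the 10 genes, in place of 7, were at least 2-fold higher in CAM+mML56 than in M_M-CSF, and 7 in place of 9 were called higher in CAM than in M_M-CSF. Of the 10 genes' fold changes, that of Ddx58 in CAM+mML56 against CAM changed sign. It was not called with all libraries (0.11) and stood at -0.10 without replicate 2. In the same comparison Ikbke, also not called, went from -0.15 to a rounded 0 without replicate 1, so its sign there cannot be read. The other fold changes kept their sign. In CAM+mML56 against CAM, Mavs, Trex1, Adar, Ifih1 and Eif2ak2 were called under all 6 alternatives that refit the test. For the lists, library size only gave 4 lower genes in place of 2 for DNA sensing, 4 in place of 1 for eIF2 kinases and 2 in place of 1 for outputs in CAM against M_M-CSF. In CAM+mML56 against M_M-CSF it gave 4, 5, 5, 4 and 1 lower genes for DNA sensing, receptor regulators, decay, eIF2 kinases and outputs, in place of 2, 3, 3, 1 and 0. In CAM+mML56 against CAM it gave 2 higher eIF2 genes in place of 1. DESeq2 called 2346 genes in that comparison, against 5320 with edgeR, 3437 against 6269 in CAM against M_M-CSF, and 3252 against 5804 in CAM+mML56 against M_M-CSF. Leaving out a peptide library leaves no test; without replicate 1 or replicate 2, 2 genes were at least 2-fold higher and 1 lower in CAM+mML56 than in CAM, 8 and 1 in CAM against M_M-CSF, and 8 or 6 higher in CAM+mML56 than in M_M-CSF. The fit without CAM and the 2-fold counts were added after seeing the data. No paired analysis was possible because 2 groups have 1 library and no 2 groups share more than 1 number: the column numbers, which no label explains, are 1 and 2 for CAM+mML56, 1 for CAM and 2 for M_M-CSF. Dhx58 (59 to 141 counts) and Mavs in CAM (54 counts) are the values that depth limits most.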
